A study of Homo sapiens with 16 samples.

Results

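The integrated stress response was read at 10 of its genes, ATF4, DDIT3, DDIT4, ASNS, TRIB3, CHAC1, SESN2, PPP1R15A, CEBPB and XBP1, in CUT&Tag libraries of HEK293 cells. CUT&Tag cuts and tags DNA beside an antibody's target with a tethered Tn5 transposase, so the count in an interval is taken as a reading of the target's occupancy there. Counted intervals were taken as members if they overlapped one of the 10 genes or lay within 10 kb of one of their GENCODE v44 transcript starts, which gave 24 of the 74404 intervals. Of the 24, 13 lay within 1 kb of a transcript start of the gene and are called start-site intervals, 4 lay over the gene body and 7 in the flanks. For each gene, the start-site interval with the highest mean level stands for it below.

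HEK293 is a human embryonic kidney line, and every library came from cells of the eGFP-YAP genotype. Libraries were made for CTCF, RAD21, H3K27ac and, through an antibody against GFP, eGFP-YAP, called YAP1 here. For each of the 4 targets there were 2 libraries of vehicle and 2 of sorbitol cells, 16 in all, with sorbitol at 200 mM for 1 h as a hyperosmotic stress. The study's design text describes 1 h without serum before sorbitol for eGFP-YAP cells, and the count columns name vehicle as the zero time point, so time in the plate may differ together with treatment. Nothing in the labels says whether the 2 libraries of a group came from separate cultures, so the p-values measure the spread between these libraries, which may be technical. Libraries of a control immunoglobulin were not analysed here. A change in counts is therefore not told apart from a change in cutting that does not depend on the antibody.

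In the integrated stress response, kinases that sense amino acid shortage, misfolded protein, double-stranded RNA or haem shortage phosphorylate the translation factor eIF2. Most translation then falls while that of ATF4 rises, and ATF4, often paired with a C/EBP protein such as CEBPB, switches on genes of amino acid supply, redox control and, through DDIT3, cell death. PPP1R15A brings a phosphatase back to eIF2 and closes the loop. XBP1 belongs to the neighbouring unfolded protein response of the endoplasmic reticulum. CTCF is a DNA-binding insulator protein, RAD21 a subunit of the cohesin ring that CTCF halts, YAP1 a coactivator carried to DNA by TEAD factors, and H3K27ac a histone mark of active promoters and enhancers.

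The sequences of known stress elements near the start sites are shown because they lie inside the very intervals that were counted. The factors that bind these elements were not profiled, and motifs of CTCF and TEAD factors were not searched. Each sequence is read from hg38, 5′ to 3′ on the gene's strand, with matched letters in capitals. The ATF4 composite element, where ATF4 pairs with a C/EBP protein, was searched as TTGCATCA, the CRE as TGACGTCA and the AP-1 site as TGANTCA, all on both strands from 500 bases before to 300 after the canonical start. The nutrient-sensing element of ASNS, TGATGAAAC, and the endoplasmic reticulum stress element, ERSE, were added after the sequences had been seen. The DDIT3 stretch of 220 bases at chr12:57520744-57520963, minus strand, held an ATF4 composite element with its first base at position -306 from the canonical start and an AP-1 site at position -241.
DDIT3: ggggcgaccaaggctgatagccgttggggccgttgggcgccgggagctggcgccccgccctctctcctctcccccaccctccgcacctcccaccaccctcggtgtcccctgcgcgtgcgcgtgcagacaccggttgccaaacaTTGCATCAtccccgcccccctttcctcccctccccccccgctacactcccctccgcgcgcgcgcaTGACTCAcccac

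The composite element was also found at CHAC1 at chr15:40953251-40953280, plus strand, and 3 times at TRIB3, each time in the same 30 bases, at chr20:380881-380910, chr20:380914-380943 and chr20:380947-380976, plus strand.
CHAC1: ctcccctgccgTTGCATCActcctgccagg
TRIB3: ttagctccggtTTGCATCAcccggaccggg

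The CRE of PPP1R15A lay at chr19:48872352-48872381, plus strand, and the nutrient-sensing element of ASNS at chr7:97872457-97872486, minus strand. The AP-1 match of ATF4 lay in the 116 bases at chr22:39520062-39520177, plus strand, and the ERSE of XBP1, an element bound by ATF6 with NF-Y, in the 85 bases at chr22:28800598-28800682, minus strand.
PPP1R15A: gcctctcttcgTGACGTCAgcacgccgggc
ASNS: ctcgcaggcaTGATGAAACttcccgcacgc
ATF4: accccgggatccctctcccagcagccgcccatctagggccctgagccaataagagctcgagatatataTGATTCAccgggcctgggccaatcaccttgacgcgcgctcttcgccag
XBP1: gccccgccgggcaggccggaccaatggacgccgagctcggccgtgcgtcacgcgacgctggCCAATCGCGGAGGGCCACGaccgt

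Among windows of the same 800 bases at 20033 protein-coding genes, TTGCATCA was present in 1.31%, against 3 of the 10 genes here. The 10 genes and the ATF4 composite element were both chosen as parts of the same response, so these shares are a description. The CRE was in 3.35% of windows and 1 of the 10 genes, and the AP-1 site in 12.8% and 2. The ASNS element and the ERSE, each at 1 gene, were chosen after the sequences had been seen. Their shares over all windows, 0.549% and 0.135%, therefore make no comparison. Every match lay inside the start-site interval described for its gene. No match was found at CEBPB, DDIT4 or SESN2, which says only that these letters are not in the window.

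Libraries held between 1.19 and 8.84 times 1000000 counts in all, and the 24 intervals held between 362 counts in a RAD21 vehicle library and 9490 in an H3K27ac vehicle library. The share of counts on the mitochondrial genome was 15.7% and 19.9% in CTCF vehicle and 32.8% and 33.9% in CTCF sorbitol libraries. It was 34.3% and 38.5% against 44.8% and 46.0% for RAD21, 36.5% and 38.1% against 55.4% and 57.8% for YAP1, and between 1.95% and 2.08% in all H3K27ac libraries. Levels are therefore given as counts per 1000000 (CPM) on library sizes scaled by TMM, which centres the typical interval. Scaling on total counts instead moved the median log2 fold change over all tested intervals from -0.06 to -1.04 for CTCF, from -0.01 to -0.60 for RAD21, from -0.04 to -1.46 for YAP1 and from 0.02 to 0.17 for H3K27ac. Each change within a target below is relative to the median of that target. The part of the mitochondrial share in the results was not tested. Summed over a gene's start-site intervals, vehicle H3K27ac at the kidney genes was 45.9 CPM at LHX1 (2 intervals), 36.1 at PAX2 (1) and 19.5 at EYA1 (3). The blood genes PTPRC and CD3E and the liver gene ALB had no start-site interval, and the muscle gene MYOD1 had 1, with 11.0 CPM. The sums cover different numbers of intervals, so EYA1 and MYOD1 cannot be ranked from them.

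After sorbitol, H3K27ac fell at 9 of the 10 described start sites of the stress response and CTCF rose at 8, of which 4 held on total counts and 5 with counts corrected for GC content. RAD21 and YAP1 passed the test at DDIT3 and ATF4. Calls are from edgeR's quasi-likelihood test with a Benjamini-Hochberg adjusted p under 0.05 over all tested intervals of a target. For CTCF, 10 of the 18 tested member intervals rose and 1 fell, where 19.5% of all tested intervals rose and 20.7% fell. Of the 10 described start sites 8 rose in CTCF, against 29.1% of all tested start-site intervals that rose and 10.3% that fell. The 4 CTCF rises on total counts stood beside 6.28% of start-site intervals rising on that scale, and the 5 with GC-corrected offsets beside 13.8%. For H3K27ac, 17 of 24 member intervals fell and 0 rose, against 14.5% falling among all tested intervals. At start sites, 12 of 13 fell, against 26.9% of all tested start-site intervals that fell and 9.94% that rose.

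RAD21 rose at 2 of 11 tested members, with 3.34% of all tested intervals and 2.76% of start-site intervals rising. YAP1 rose at 2 of 18 tested members and fell at 0, with 5.34% of all tested intervals rising, and among start-site intervals 2.91% rose and 1.39% fell. The median log2 fold change over the tested members was 0.92 in CTCF, 0.48 in RAD21, 0.11 in YAP1 and -0.92 in H3K27ac. Over all tested start-site intervals it was 0.42, 0.18, -0.08 and -0.13. With total counts as the scale, CTCF rose at 4 members and fell at 1, with 5.37% of all tested intervals rising and 53.6% falling. YAP1 rose at 0 and fell at 13, with 63.5% of all tested intervals falling. On that scale H3K27ac still fell at 16 members, with 10.4% of all tested intervals falling. RAD21 rose at 2, with 1.59% of all tested intervals rising. The CTCF rises at DDIT3, CHAC1, DDIT4 and ATF4 passed in every alternative run, with their lowest log2 values, 2.60, 2.26, 1.32 and 0.87, on total counts. Nuclei were measured in bulk, so a change in all nuclei and a change in a fraction of them cannot be told apart.

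**Figure D1:**
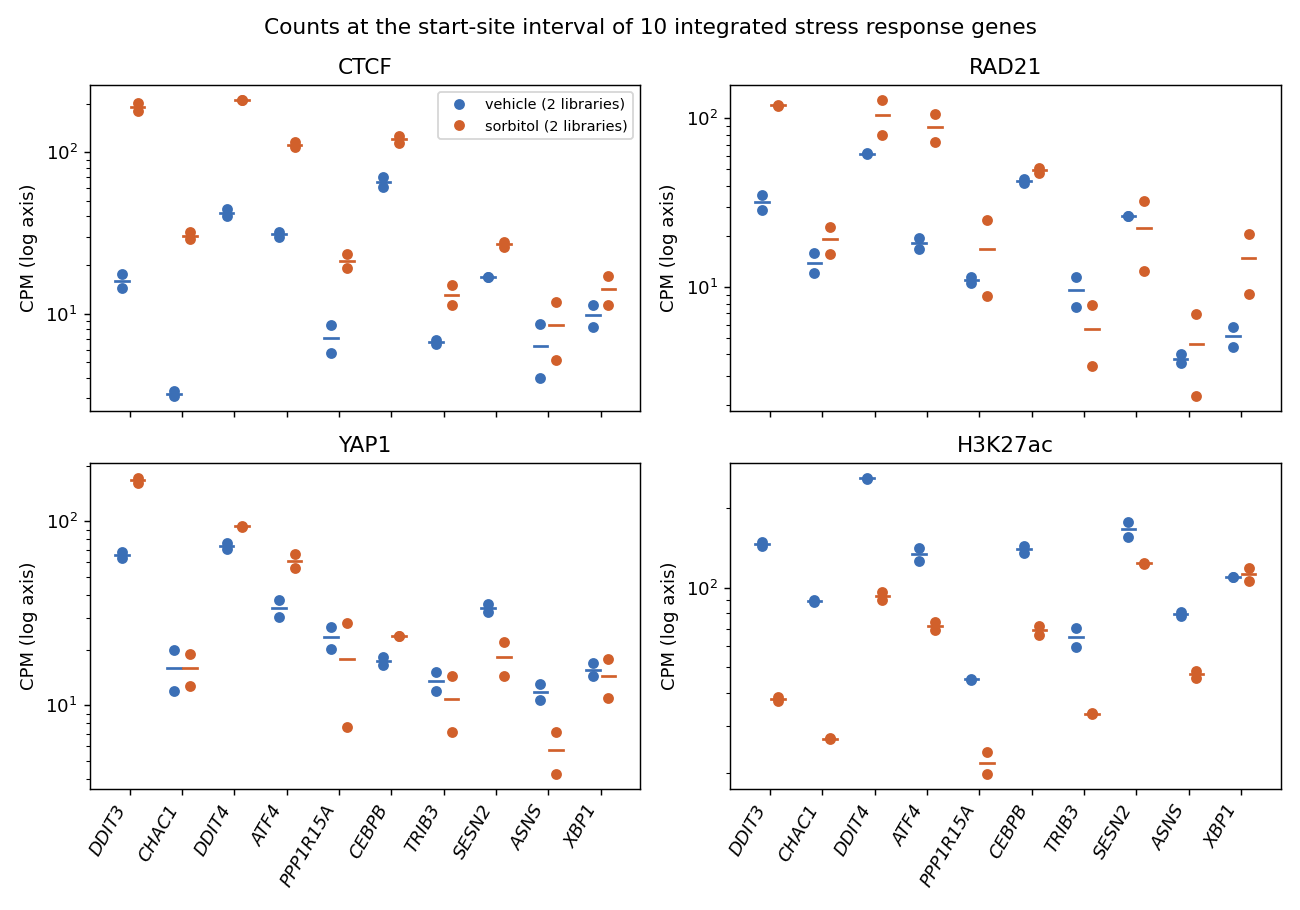
Level of each target at the start-site interval of the 10 genes, in CPM on a logarithmic axis, with 1 point per library, blue for vehicle and orange for sorbitol, and a bar at the mean of 2 libraries. CTCF at DDIT3 goes from 14.4 and 17.7 to 180 and 201 CPM, while H3K27ac there goes from 143 and 148 to 38.6 and 37.4 CPM.

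ATF4 is the transcription factor at the centre of the response. Its start-site interval, chr22:39519216-39521238, covers the start and untranslated exon bases. CTCF gave 30.0 and 31.9 CPM in vehicle and 107 and 116 CPM in sorbitol libraries, a 3.61-fold rise (log2 1.85 ± 0.15 SE, edgeR adjusted p = 1.2e-09). RAD21 gave 19.7 and 16.8 CPM in vehicle and 72.9 and 106 CPM in sorbitol, 4.78-fold (log2 2.26 ± 0.32, edgeR adjusted p = 0.0013). In both targets the groups stood apart, with the 2 RAD21 sorbitol libraries far from each other. YAP1 gave 37.5 and 30.2 CPM in vehicle and 56.0 and 66.0 CPM in sorbitol, 1.78-fold (log2 0.84 ± 0.21, edgeR adjusted p = 0.017). That YAP1 call was kept in 8 of 15 alternatives. It was lost without either vehicle library (edgeR adjusted p = 0.16 without replicate 1 and 0.54 without replicate 2) and in DESeq2 (log2 0.54, adjusted p = 0.20), and on total counts YAP1 passed as a fall (log2 -0.60, edgeR adjusted p = 0.044). H3K27ac gave 141 and 126 CPM in vehicle and 68.9 and 74.3 CPM in sorbitol, 1.87-fold lower (log2 -0.90 ± 0.08, edgeR adjusted p = 2.0e-11).

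The other ATF4 member lay at chr22:39529098-39529787 in the flank next to RPS19BP1. It was the only one of the 18 tested members with a called CTCF fall, from 37.7 and 42.8 to 29.5 and 25.5 CPM (log2 -0.55 ± 0.20, edgeR adjusted p = 0.032). That call was lost without either vehicle library or without sorbitol replicate 2 (edgeR adjusted p = 0.061, 0.22 and 0.15). H3K27ac was lower there too, at 17.4 and 10.8 CPM in vehicle and 5.94 and 8.82 CPM in sorbitol (log2 -0.94 ± 0.25, edgeR adjusted p = 0.0041).

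CEBPB encodes the C/EBP protein that can pair with ATF4, in a gene of 1 exon. Its start-site interval, chr20:50189974-50192113, spans the start, coding sequence and untranslated bases and was the most GC-rich of the 24, at 73.97% GC. CTCF gave 70.1 and 60.6 CPM in vehicle and 114 and 126 CPM in sorbitol (log2 0.87 ± 0.14, edgeR adjusted p = 3.5e-05), a rise that became -0.19 once counts were corrected for GC content and -0.11 on total counts. RAD21 gave 43.8 and 41.6 against 47.3 and 51.1 CPM, and YAP1 16.5 and 18.4 against 23.8 and 23.7 CPM; the groups did not overlap in either, and neither passed (edgeR adjusted p = 0.72 and 0.36). H3K27ac fell 2.02-fold, from 135 and 144 to 66.1 and 71.9 CPM (log2 -1.02 ± 0.08, edgeR adjusted p = 5.7e-13).

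Around CEBPB there were 4 more members. H3K27ac fell in an untranslated stretch near the gene's end from 17.1 and 16.8 to 5.83 and 5.84 CPM (log2 -1.54 ± 0.22) and just past the gene's end by 0.56 on the log2 scale. Upstream, at chr20:50187528-50187799, CTCF rose from 7.14 and 6.86 to 20.7 and 21.1 CPM (log2 1.57 ± 0.31, edgeR adjusted p = 4.0e-04), while H3K27ac was 5.96 and 6.54 against 4.54 and 6.46 CPM. The farthest upstream member did not pass in CTCF or H3K27ac.

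DDIT3 encodes CHOP, the factor that carries the response towards cell death. Its start-site interval, chr12:57519400-57521099, holds the composite element and AP-1 site printed above. The interval also covers a start of another annotated protein-coding gene, ENSG00000285133, so its counts cannot be given to DDIT3 alone. CTCF gave 14.4 and 17.7 CPM in vehicle and 180 and 201 CPM in sorbitol libraries, 12.0-fold, the largest CTCF rise of the 18 tested members (log2 3.58 ± 0.15 SE, edgeR adjusted p = 1.4e-14). RAD21 gave 28.5 and 35.4 against 119 and 120 CPM, 3.80-fold (log2 1.92 ± 0.28, edgeR adjusted p = 0.0019). YAP1 gave 68.4 and 62.8 against 172 and 162 CPM, 2.55-fold (log2 1.35 ± 0.19, edgeR adjusted p = 5.1e-05). H3K27ac went the other way, from 143 and 148 to 38.6 and 37.4 CPM, 3.83-fold lower (log2 -1.94 ± 0.08, edgeR adjusted p = 5.6e-20). DDIT3 and ATF4 were the genes whose start sites passed in all 4 targets, at ATF4 with the YAP1 call that was kept in 8 of 15 alternatives. On total counts the CTCF rise was 2.60 on the log2 scale, and the YAP1 value was -0.08.

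The remaining DDIT3 intervals lie beside alternative upstream starts and inside the neighbouring gene MBD6, so their counts cannot be given to 1 gene either. At chr12:57521671-57521973 H3K27ac fell from 25.3 and 23.2 to 5.51 and 5.47 CPM (log2 -2.14 ± 0.20, edgeR adjusted p = 1.8e-10), the largest fall of the 24, while CTCF was 5.59 and 4.26 against 2.07 and 5.89 CPM. At chr12:57522177-57523379 CTCF rose from 12.0 and 12.1 to 40.9 and 31.4 CPM (log2 1.59 ± 0.24, edgeR adjusted p = 2.6e-05). H3K27ac there fell from 103 and 106 to 42.5 and 43.7 CPM (log2 -1.27 ± 0.09). The CTCF rise was therefore over 2 of the 3 intervals and the H3K27ac fall over all 3.

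CHAC1 degrades glutathione and is a target of ATF4 and DDIT3. At chr15:40952408-40953827 CTCF gave 3.10 and 3.31 CPM in vehicle and 32.1 and 28.9 CPM in sorbitol, 9.46-fold (log2 3.24 ± 0.32, edgeR adjusted p = 5.4e-08). H3K27ac fell 3.30-fold, from 89.8 and 88.1 to 27 and 26.8 CPM (log2 -1.72 ± 0.10, edgeR adjusted p = 2.9e-16). RAD21 and YAP1 overlapped between groups, at 12.1 and 15.9 against 15.8 and 22.7 CPM for RAD21 and 12.0 and 19.9 against 19.1 and 12.7 CPM for YAP1. Neither passed (edgeR adjusted p = 0.56 and 0.96).

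TRIB3, a pseudokinase that restrains ATF4, DDIT3 and AKT, carries the repeated composite element in an annotated exon just past its start. At chr20:380587-382298 H3K27ac fell from 59.5 and 70.6 to 33.7 and 33.3 CPM, 1.94-fold (log2 -0.96 ± 0.11, edgeR adjusted p = 6.2e-09). CTCF gave 6.52 and 6.86 against 15.0 and 11.3 CPM (log2 0.97 ± 0.36, edgeR adjusted p = 0.037). The CTCF call kept its side of the threshold in 2 of 14 alternatives. It was lost without CTCF vehicle replicate 1 or 2 or sorbitol replicate 1 (edgeR adjusted p = 0.20, 0.15 and 0.19), and the value was 0.20 after GC correction and -0.01 on total counts. RAD21 gave 7.67 and 11.5 against 7.89 and 3.41 CPM and YAP1 12.0 and 15.2 against 7.15 and 14.4 CPM, with groups that overlapped and no call (edgeR adjusted p = 0.58 and 0.61). The TRIB3 members in the upstream flank and in an intron did not pass in any target in which they were tested.

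DDIT4 (REDD1) and SESN2 (sestrin 2) both restrain the growth kinase mTORC1. At the DDIT4 start, chr10:72272624-72275595, the widest member at 2972 bp, CTCF gave 44.4 and 40.2 CPM in vehicle and 211 and 210 CPM in sorbitol, 4.94-fold (log2 2.31 ± 0.13, edgeR adjusted p = 3.5e-12). H3K27ac fell from 257 and 259 to 95.9 and 89.6 CPM, 2.78-fold (log2 -1.48 ± 0.07, edgeR adjusted p = 2.3e-19). RAD21 gave 61.4 and 62.0 against 129 and 79.5 CPM and YAP1 70.4 and 75.8 against 93.5 and 94.8 CPM. Every sorbitol library lay above both vehicle libraries in these targets, without passing the test (edgeR adjusted p = 0.15 and 0.29).

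SESN2 had smaller changes than DDIT4 in both CTCF and H3K27ac. At chr1:28259053-28260779 H3K27ac fell from 177 and 155 to 123 and 124 CPM, 1.35-fold (log2 -0.43 ± 0.07, edgeR adjusted p = 1.3e-05), and the call was lost in 1 of 15 alternatives, the fit over all 16 libraries (log2 -0.28, edgeR adjusted p = 0.32). CTCF gave 16.8 and 17.0 against 27.9 and 26.0 CPM (log2 0.67 ± 0.24, edgeR adjusted p = 0.028), a call kept in 3 of 15 alternatives and lost without CTCF vehicle replicate 1 or 2 or sorbitol replicate 1 (edgeR adjusted p = 0.17, 0.13 and 0.086). Its CTCF value was -0.02 after GC correction and -0.31 on total counts. YAP1 gave 35.5 and 32.2 against 22.0 and 14.4 CPM and missed the threshold (log2 -0.86 ± 0.26, edgeR adjusted p = 0.052). It passed as a fall in 9 of 15 alternatives, among them DESeq2 (log2 -1.16, adjusted p = 0.011) and the fit without YAP1 sorbitol replicate 1 (log2 -1.33, edgeR adjusted p = 0.0023). RAD21 gave 26.3 and 26.6 against 32.5 and 12.5 CPM, with its sorbitol libraries on either side of the vehicle ones. The far upstream SESN2 interval at chr1:28249468-28249863 lost H3K27ac, from 21.1 and 20.4 to 9.50 and 10.3 CPM (log2 -1.07 ± 0.19, edgeR adjusted p = 3.3e-05), and the intronic one did not pass.

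ASNS makes asparagine and is the textbook ATF4 target of amino acid shortage. At chr7:97871684-97872751 H3K27ac fell from 80.9 and 78.0 to 48.6 and 45.6 CPM, 1.68-fold (log2 -0.75 ± 0.09, edgeR adjusted p = 4.1e-08). CTCF overlapped between groups, at 8.69 and 4.02 against 5.17 and 11.8 CPM (log2 0.37 ± 0.46, edgeR adjusted p = 0.54). YAP1 gave 13.0 and 10.7 against 7.15 and 4.23 CPM (log2 -1.0 ± 0.43, edgeR adjusted p = 0.19). RAD21 had too few counts for a test, at 4.02 and 3.54 against 6.90 and 2.27 CPM. ASNS thus shared the H3K27ac fall with the other ATF4 targets, with a CTCF value near 0 and a wide error.

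PPP1R15A (GADD34) recruits the phosphatase that ends the response. At chr19:48872150-48873536 CTCF gave 5.74 and 8.52 against 23.3 and 19.1 CPM, 3.03-fold (log2 1.60 ± 0.32, edgeR adjusted p = 5.1e-04), a call lost in 1 of 14 alternatives, total counts (log2 0.62, edgeR adjusted p = 0.12). H3K27ac fell 2.06-fold, from 44.8 and 45.4 to 23.9 and 19.8 CPM (log2 -1.04 ± 0.13, edgeR adjusted p = 5.2e-08), and in an untranslated stretch near the gene's end from 5.64 and 5.89 to 1.62 and 1.86 CPM (log2 -1.72 ± 0.39, edgeR adjusted p = 9.5e-04). YAP1 gave 20.3 and 26.5 against 28.0 and 7.62 CPM and RAD21 10.6 and 11.5 against 8.87 and 25.0 CPM. In both, 1 sorbitol library lay above and the other below the vehicle libraries, and neither target passed. Without YAP1 sorbitol replicate 1 the YAP1 value was -1.70 (edgeR adjusted p = 0.0034).

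XBP1, the factor made active when ERN1 splices its RNA, was the exception in H3K27ac. At chr22:28799828-28800951 H3K27ac gave 110 and 110 CPM in vehicle and 106 and 119 CPM in sorbitol (log2 0.03 ± 0.08, edgeR adjusted p = 0.80). It passed as a small rise with GC-corrected offsets, without and with the replicate block (log2 0.21 in both, edgeR adjusted p = 0.045 and 0.038). The same held with a mean of at least 50 counts (log2 0.17, edgeR adjusted p = 0.047). CTCF gave 8.23 and 11.4 against 17.1 and 11.3 CPM (log2 0.55 ± 0.34, edgeR adjusted p = 0.20), and YAP1 16.9 and 14.4 against 17.9 and 11.0 CPM; both overlapped between groups. In RAD21, 5.84 and 4.43 against 20.7 and 9.09 CPM were too few counts for a test. In the first intron, at chr22:28799317-28799730, H3K27ac was lower in sorbitol, at 27.4 and 26.6 against 17.5 and 21.7 CPM (log2 -0.47 ± 0.15, edgeR adjusted p = 0.025).

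**Figure D2:**
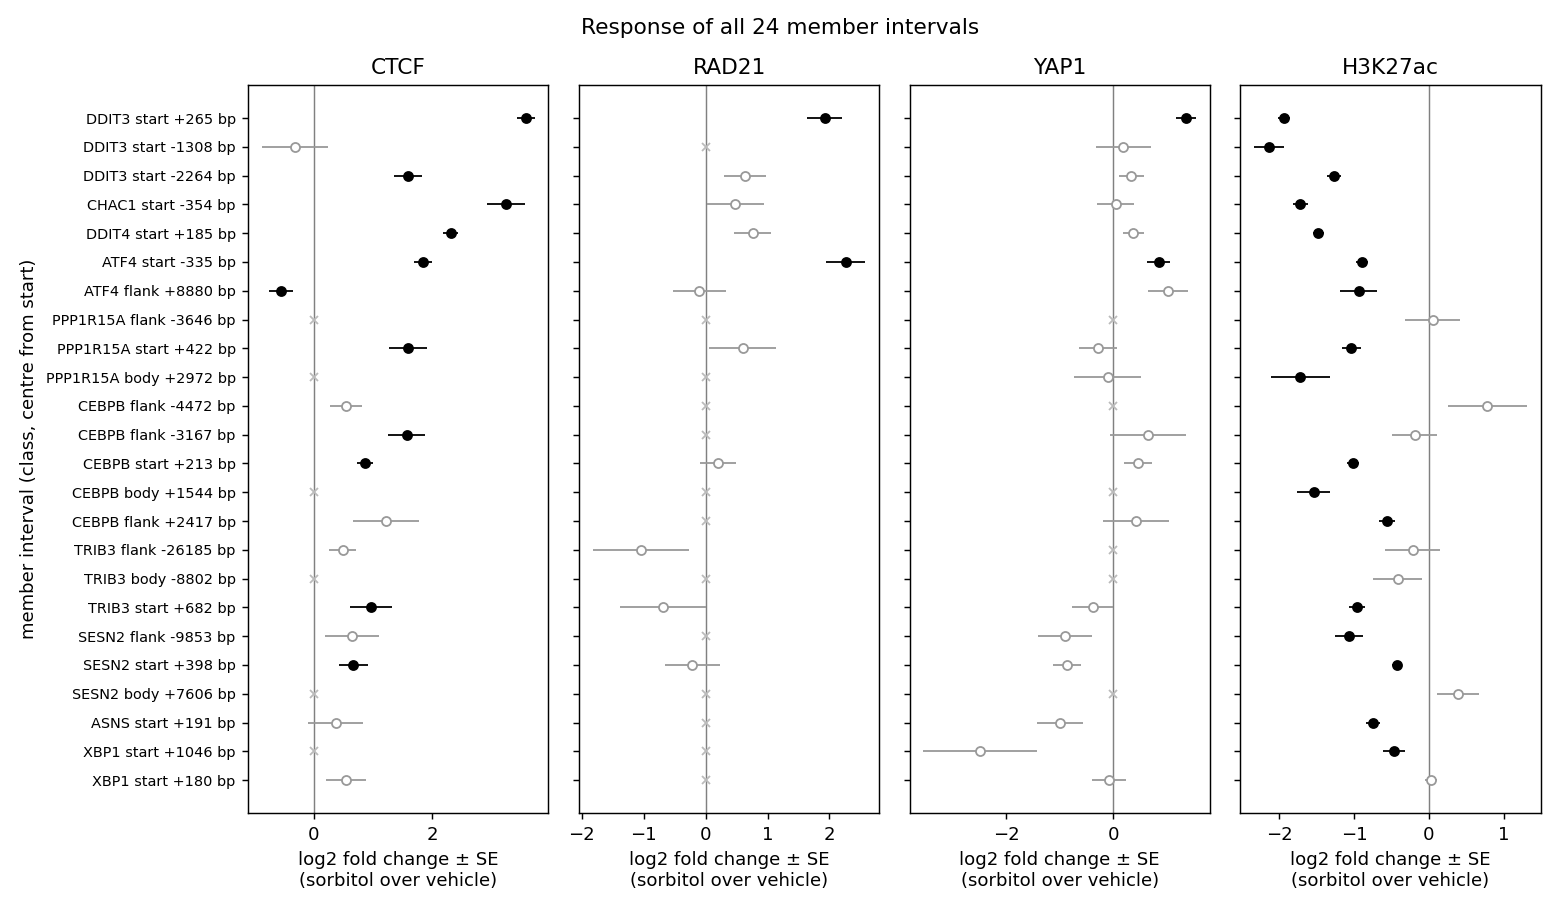
Log2 fold change of sorbitol over vehicle with its standard error at all 24 intervals, 1 panel per target, each labelled by gene, class and distance of its centre from the canonical start. Filled points passed the test, open points did not, and a cross at 0 marks an interval with too few counts to test. Filled CTCF points lie right of 0 with 1 exception, and every filled H3K27ac point lies left of it.

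Before sorbitol the 10 start sites were strong in H3K27ac and differed widely in CTCF. Per kilobase of interval, vehicle H3K27ac was 97.7 CPM at XBP1, 96.1 at SESN2, 86.8 at DDIT4, 85.6 at DDIT3, 74.4 at ASNS, 66.1 at ATF4, 65.1 at CEBPB, 62.6 at CHAC1, 38.0 at TRIB3 and 32.5 at PPP1R15A, with a median of 24.6 CPM per kilobase over all start-site intervals. Vehicle CTCF ran from 2.26 CPM per kilobase at CHAC1 to 30.5 at CEBPB, around a median of 5.94. The CHAC1 level was at percentile 16.8 of all start-site intervals and the CEBPB level at percentile 92.1. YAP1 in vehicle was 38.6 CPM per kilobase at DDIT3, at percentile 99.1, and 24.6 at DDIT4, at percentile 96.8, where the median was 5.49. The genes with the largest CTCF rise, DDIT3 and CHAC1, thus started at percentiles 67.6 and 16.8 in CTCF.

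Shares inside a library do not depend on scaling between libraries. Each share depends on the other genes, so it can move against the CPM of its own interval, as at SESN2 in H3K27ac. Shares were taken over the counts in the 10 start-site intervals together. In CTCF, DDIT3 held 7.87% ± 1.32 (SD, n = 2) of them in vehicle and 25.5% ± 1.30 in sorbitol. CHAC1 held 1.57% ± 0.107 and 4.09% ± 0.408, and DDIT4 20.6% ± 0.983 and 28.1% ± 0.872. CEBPB held 31.9% ± 2.61 in vehicle and 16.1% ± 0.627 in sorbitol, and ATF4 15.1% ± 1.02 and 14.9% ± 0.511, which overlapped. The largest CTCF share was that of CEBPB in vehicle and that of DDIT4 in sorbitol, followed by DDIT3.

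In RAD21, ATF4 went from 8.15% ± 1.16 to 20.1% ± 6.12 and DDIT3 from 14.2% ± 1.76 to 26.9% ± 1.44. In YAP1, DDIT3 held 21.6% ± 1.49 in vehicle and 39.0% ± 0.688 in sorbitol, and SESN2 11.1% ± 0.867 and 4.22% ± 1.01. In H3K27ac, DDIT3 held 11.8% ± 0.374 and 5.97% ± 0.196. XBP1 held 8.92% ± 0.104 and 17.7% ± 1.33, and SESN2 13.5% ± 1.17 and 19.4% ± 0.178. These groups did not overlap. With 2 libraries against 2 an exact two-sided permutation test cannot go below p = 0.333, so none was run. The counts behind a share were 259 to 602 per library in RAD21 and 5163 to 7686 in H3K27ac.

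**Figure D3:**
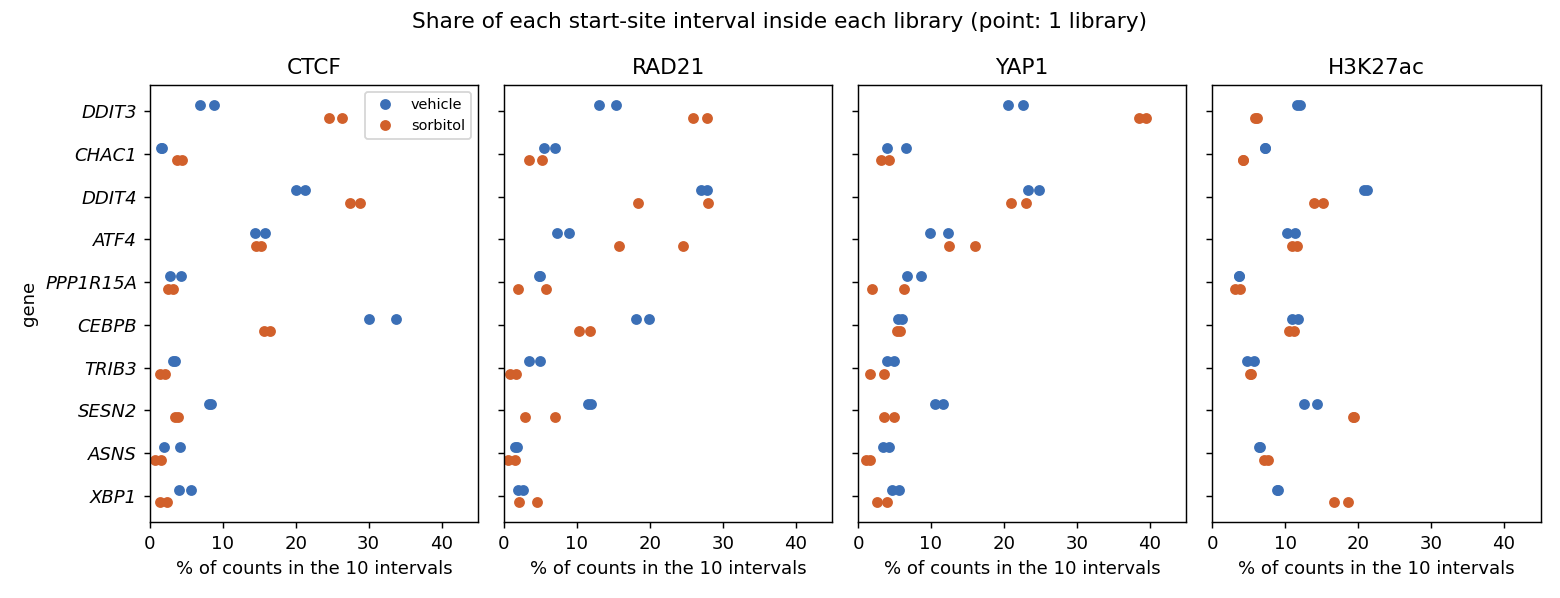
Percent of the counts in the 10 start-site intervals that fell in each gene's interval, with 1 point per library, blue for vehicle and orange for sorbitol, and 1 panel per target. DDIT3 holds 24.6% and 26.4% in the CTCF sorbitol libraries against 6.94% and 8.80% in vehicle, and 6.11% and 5.83% against 11.6% and 12.1% in H3K27ac.

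The CTCF and H3K27ac responses were then compared gene by gene. Across the 10 start sites their log2 fold changes correlated with Pearson's r at -0.88 and Spearman's rho at -0.88, against -0.17 and -0.18 over 16462 start-site intervals tested in both. Over the 18 member intervals tested in both, the values were weaker, at -0.39 and -0.40. These are descriptions of intervals that all come from the same 8 libraries, 4 for each target, and no test was made of them. A CTCF rise with an H3K27ac fall, both called, was present at 8 of the 10, 80.0%, and at 14.6% of the start-site intervals. On total counts it was present at 4 of the 10 and 2.76% of the start-site intervals, and with GC-corrected offsets at 5 of the 10 and 5.28%. DDIT3, CHAC1 and DDIT4 had the 3 largest CTCF rises and the 3 largest H3K27ac falls of the 10. ATF4, PPP1R15A, TRIB3 and CEBPB lay between, and SESN2, XBP1 and ASNS had the smallest CTCF values, 0.67, 0.55 and 0.37.

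Whether the responses differed was tested with an interaction term in a fit of the 8 CTCF and H3K27ac libraries. It passed with CTCF higher at 12 of 24 members and with CTCF lower at 0, where 9.30% of all tested intervals passed with CTCF higher and 12.3% with CTCF lower. Among start-site intervals 19.1% passed with CTCF higher and 9.59% with CTCF lower. Some intervals entered this fit through their H3K27ac counts. Library sizes were scaled over both targets together, so a difference need not equal that between the single fits. The median difference over all tested intervals was -0.27. Of the 18 members also tested in CTCF alone, 12 passed with CTCF higher, against 13.7% of all such intervals, and 0 with CTCF lower, against 18.9%. The log2 difference was 5.16 ± 0.19 at DDIT3, 4.61 ± 0.31 at CHAC1, 3.42 ± 0.16 at DDIT4, 2.40 ± 0.18 at ATF4 and 2.30 ± 0.33 at PPP1R15A. At ASNS it was 0.73 ± 0.39 (edgeR adjusted p = 0.18) and at XBP1 0.17 ± 0.29 (edgeR adjusted p = 0.73). Without CTCF vehicle replicate 1 or sorbitol replicate 1 the ASNS difference was 1.65 and 1.29 and passed (edgeR adjusted p = 0.0065 and 0.044).

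For YAP1 against H3K27ac the difference passed with YAP1 higher at 8 members, where 2.55% of all tested intervals passed that way, and with YAP1 lower at 1, where 3.72% did. Among start-site intervals the shares were 3.95% and 6.25%. The median difference over all tested intervals was -0.21. Of the 18 members also tested in YAP1 alone, 8 passed with YAP1 higher and 1 with YAP1 lower, against 5.31% and 7.82% of all such intervals. DDIT3 led with 2.93 ± 0.17, followed by DDIT4 with 1.49 ± 0.17, CHAC1 with 1.44 ± 0.33 and ATF4 with 1.37 ± 0.20. The member with YAP1 lower was the SESN2 start site, at -0.77 ± 0.25 (edgeR adjusted p = 0.047). That call was kept in 10 of 18 alternatives. It was lost without any 1 of the H3K27ac libraries (edgeR adjusted p = 0.057 and 0.19 without vehicle replicates 1 and 2, 0.10 and 0.11 without sorbitol replicates 1 and 2), without YAP1 vehicle replicate 1 (0.088) and without YAP1 sorbitol replicate 2 (0.23). Without YAP1 sorbitol replicate 1 the differences at CHAC1 and CEBPB were 0.94 and 0.98 and no longer passed. On total counts, 1 member passed with YAP1 higher and 6 with YAP1 lower, where 0.544% and 34.1% of all tested intervals did.

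**Figure D4:**
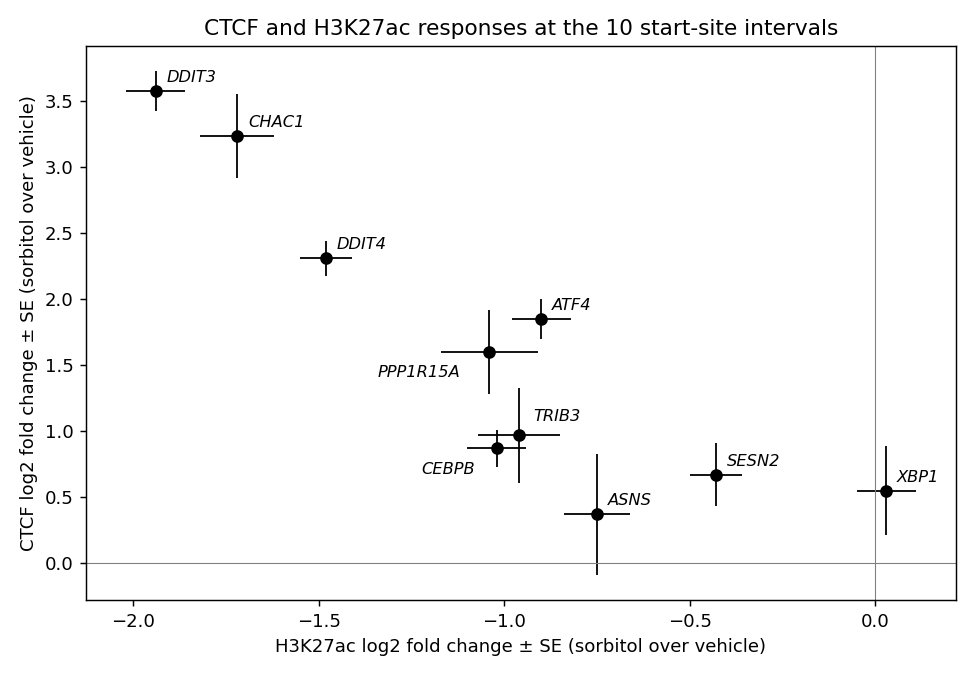
Log2 fold change of sorbitol over vehicle in H3K27ac (horizontal) and CTCF (vertical) at the start-site interval of each of the 10 genes, with standard errors. DDIT3 lies at -1.94 and 3.58, XBP1 at 0.03 and 0.55, and the other genes lie between them in H3K27ac.

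Other genes of the pathway were counted at their start-site intervals, 92 for 60 genes. Among them CTCF rose at 27 of 76 tested and fell at 2, RAD21 rose at 5 of 60, YAP1 rose at 7 of 81 and fell at 3, and H3K27ac rose at 7 of 90 and fell at 45. As shares, CTCF rose at 35.5% against 29.1% of all tested start-site intervals, RAD21 at 8.33% against 2.76% and YAP1 at 8.64% against 2.91%, while the 45 of 90 falling in H3K27ac stood beside 26.9%. The upstream machinery, made of the eIF2 kinases, eIF2, its exchange factor eIF2B and the phosphatase, had H3K27ac rising at 4 of 20 intervals and falling at 3, with a median of -0.02. Its share falling, 15.0%, was under the 26.9% of all start-site intervals, and the 4 of 20 rising stood beside 9.94%. The largest H3K27ac rise among the 60 genes was at EIF2B1, a subunit of eIF2B (log2 0.46 ± 0.09). CTCF in that list rose at 5 of 16, 31.2% against 29.1% of all start-site intervals, and fell at 1, which was EIF2S3, the gamma subunit of eIF2 (log2 -0.69 ± 0.20).

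Among ATF4 targets of amino acid supply and tRNA charging, H3K27ac fell at 23 of 38 intervals and rose at 2, with a median of -0.51, and CTCF rose at 6 of 29. The share with an H3K27ac fall was 60.5% against 26.9% of all start-site intervals, and the share with a CTCF rise was 20.7%, under the 29.1% of all. SLC7A5, the leucine transporter subunit, had CTCF at 15.8 ± 1.87 CPM in vehicle and 104 ± 26.4 in sorbitol (SD, n = 2; log2 2.70 ± 0.19 SE). It also rose in RAD21 (log2 2.26 ± 0.31) and in YAP1 (log2 1.60 ± 0.23). SLC3A2, the partner chain of SLC7A5, fell in YAP1 at 1 start-site interval (log2 -1.24 ± 0.25) and rose at another (log2 0.92, edgeR adjusted p = 0.019). SLC1A5, a glutamine transporter, fell in YAP1 at 1 of its 3 tested intervals (log2 -1.40 ± 0.34), with -0.65 and 0.71 at the others, which did not pass.

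Among other stress factors and secreted targets, H3K27ac fell at 10 of 13 intervals and rose at 0, CTCF rose at 4 of 13, RAD21 at 2 of 12 and YAP1 at 3 of 13. The shares were 76.9% falling in H3K27ac against 26.9% of all start-site intervals, and 30.8% rising in CTCF against 29.1%, 16.7% in RAD21 against 2.76% and 23.1% in YAP1 against 2.91%. STC2, a secreted glycoprotein, had the largest CTCF rise of the 60 genes, from 13.9 ± 1.82 to 121 ± 9.36 CPM (SD, n = 2; log2 3.14 ± 0.17 SE), with H3K27ac falling from 220 ± 3.88 to 72.0 ± 2.06 CPM in the same interval (log2 -1.61 ± 0.07). At the other STC2 start-site interval CTCF did not pass (log2 0.27, edgeR adjusted p = 0.42), and H3K27ac fell there too (log2 -2.16). YAP1 rose at 1 interval of VEGFA, the angiogenic growth factor (log2 1.36 ± 0.31), with 0.09 and 0.20 at the others, which did not pass.

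In the unfolded protein response of the endoplasmic reticulum, CTCF rose at 12 of 18 intervals and fell at 1, with a median of 1.08, and H3K27ac fell at 9 of 19 and rose at 1, which was ATF6, a sensor of that response (log2 0.44 ± 0.14). The CTCF fall was at 1 interval of SDF2L1, a chaperone partner of that compartment (log2 -1.55 ± 0.34). The other SDF2L1 interval had -0.12 in CTCF and the other ATF6 interval -0.05 in H3K27ac, and neither passed. RAD21 rose at 2 of 15 and YAP1 at 2 of 18. The share with a CTCF rise was 66.7% against 29.1% of all start-site intervals, and the share with an H3K27ac fall 47.4% against 26.9%. The lists are textbook groups chosen with earlier results of these data known, so their counts are a description. All calls at the other pathway genes were made on the TMM scale alone, not on total counts or with GC-corrected offsets.

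**Figure D5:**
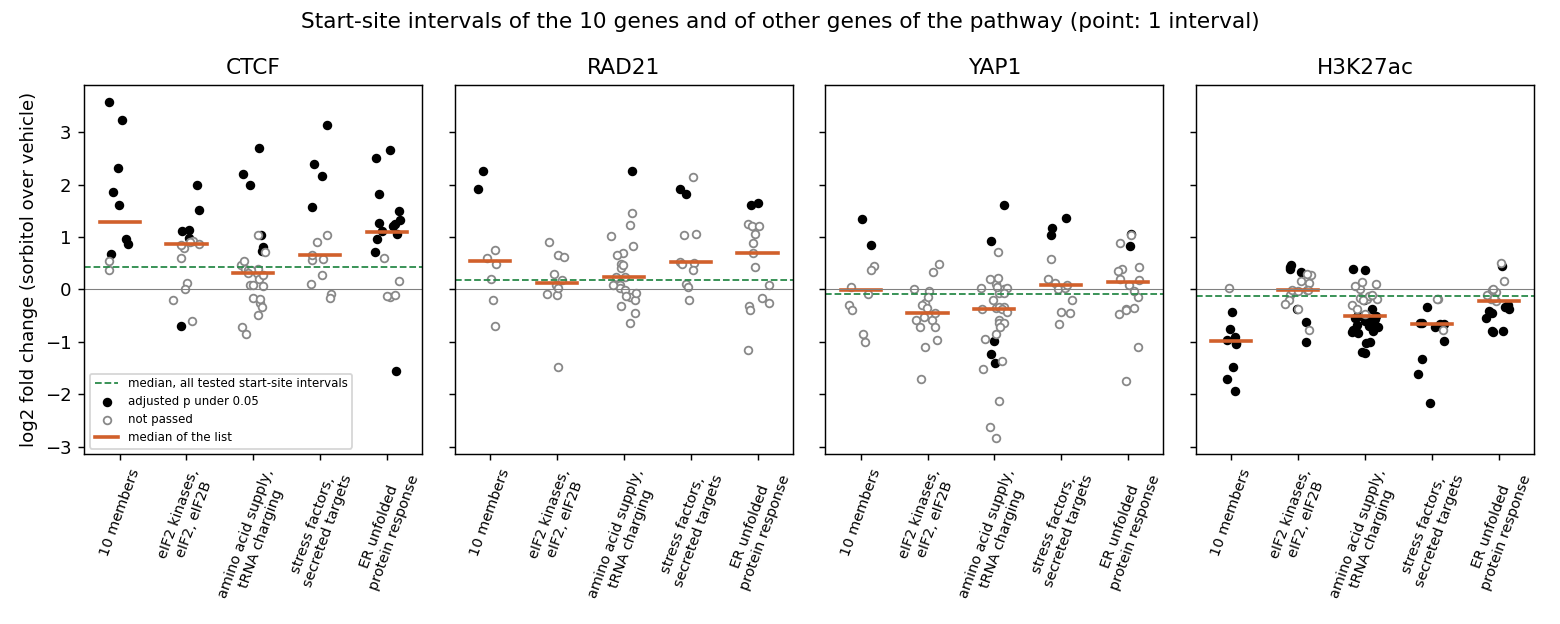
Log2 fold change of sorbitol over vehicle at start-site intervals of the 10 genes and of 4 lists of other pathway genes, 1 panel per target, with filled points for intervals that passed the test, an orange bar at each list's median and a dashed green line at the median of all tested start-site intervals. In H3K27ac the 10 genes lie lowest by median and the eIF2 list lies near 0, at -0.02.

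Members under limits other than 10 kb were not counted. The member nearest to the limit inside was the upstream SESN2 interval, 9655 bp from the start. The nearest outside was also at SESN2, with its near edge 10709 bp away, at chr1:28248188-28248809. At CEBPB, CHAC1 and ATF4 the nearest interval outside lay 10911, 11170 and 11630 bp from the canonical start. For ASNS, CHAC1 and DDIT4 the start-site interval was the only member.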

How the data were processed

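The authors deposited 1 table of raw counts per peak interval in hg38 (74404 intervals, 16 libraries), whole numbers not scaled between libraries. The submitters' processing notes name Trim Galore, FastQC, BWA 0.7.17, SAMtools, Picard, bedtools 2.31.1 and MACS2 2.2.6 without roles. How peaks and counts were made, and whether libraries were pooled for peak calling, is not given in the sources used here. The first base of an interval was taken as the file's start plus 1. Every one of the 74404 intervals fits hg38 chromosome names and lengths.

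From the counts, each target was fitted alone on its 4 libraries with edgeR 4.0.16 in R 4.3.3 (robust quasi-likelihood test, two-sided, TMM scaling, filterByExpr at 10 counts, Benjamini-Hochberg adjustment over all tested intervals, threshold 0.05). Standard errors were derived from the F statistic. CPM are per 1000000 of TMM-scaled library size, as mean ± SD of 2 libraries. Differences between targets were tested as an interaction over 8 libraries. The fits were tested on simulated data. Intervals holding over 0.1% of a library's counts (388, none of them a member) were left out of 1 scaling alternative.

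Alternatives were DESeq2 1.42.0, its size factors, total counts, totals outside those 388 intervals, TMM over start-site intervals, leaving out the count filter, raising it to a mean of 50 counts, 1 fit of all libraries, a replicate block, offsets corrected for GC content (lowess span 0.3), the block with those offsets, and each library left out. Depth limits RAD21 most: 11 of the 24 members could be tested there, 18 in CTCF and YAP1 and 24 in H3K27ac.

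All 10 genes are named, each by the start-site interval with the highest mean CPM, with up to 3 largest called rises and 3 largest falls per target. Of other pathway genes, the 2 largest rises and falls per target are named. Promoter sequences were read from the hg38 genome, with GENCODE v44 canonical starts. Members, lists and tests were chosen with earlier results of these data known. One gene of the kidney marker list is not reported here.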

Additional observations from a re-analysis of the deposited data

Results flagged for a closer look

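At 8 of the 10 start sites the CTCF and H3K27ac responses to sorbitol differed by edgeR's interaction test over 8 libraries. The log2 difference, CTCF minus H3K27ac, was 5.16 at DDIT3, 4.61 at CHAC1, 3.42 at DDIT4, 2.40 at ATF4, 2.30 at PPP1R15A, 1.57 at TRIB3, 1.52 at CEBPB and 0.74 at SESN2. Over all members 12 passed. Among all tested start-site intervals 19.1% passed with CTCF higher and 9.59% with CTCF lower. The values at TRIB3, CEBPB and SESN2 no longer passed with counts corrected for GC content.

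The YAP1 and H3K27ac responses differed at 6 of the 10 start sites and at 9 members in all. The log2 difference, YAP1 minus H3K27ac, was 2.93 at DDIT3, 1.49 at DDIT4, 1.44 at CHAC1, 1.37 at ATF4, 1.12 at CEBPB and -0.77 at SESN2. Among all tested start-site intervals 3.95% passed with YAP1 higher and 6.25% with YAP1 lower. The SESN2 call was kept in 10 of 18 alternatives. On total counts the difference at DDIT3 was the one that still passed with YAP1 higher.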

How the results depend on the processing

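For 37 called results at single members, 529 of 594 alternatives kept the direction and the call, 52 lost the call and 13 changed sign, and 21 results kept both throughout. Of 353 alternatives for 23 results without a call, 24 gained one in the same direction and 43 changed sign, of which 4 had a call in the new direction. The cause of a change was not tested.

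The number of members that passed in CTCF was 5 on total counts and 6 with a mean of at least 50 counts, where fewer intervals are tested. In the fit of all 16 libraries 4 members rose in RAD21, where 1653 of 57620 tested intervals rose and 1178 fell. In YAP1 that fit had 1 member rising and 3 falling, where 1015 of 57620 intervals rose and 2319 fell. On total counts YAP1 fell at 13 members, where 63.5% of all tested intervals fell. The CTCF minus H3K27ac difference passed with CTCF higher at 7 members on total counts. Over all tested intervals 3.85% passed that way and 28.0% with CTCF lower.

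Log2 values that changed sign on total counts were, in CTCF, -0.62 at ASNS, -0.43 at XBP1, -0.31 at SESN2, -0.11 at CEBPB and -0.01 at TRIB3, in RAD21 -0.39 at CEBPB and -0.10 at CHAC1, and in YAP1 -1.37 at CHAC1, -1.07 at DDIT4, -0.98 at CEBPB, -0.60 at ATF4 and -0.08 at DDIT3. For CTCF minus H3K27ac they were -0.59 at XBP1, -0.04 at ASNS and -0.03 at SESN2, and for YAP1 minus H3K27ac -1.02 at TRIB3, -0.77 at PPP1R15A and -0.10 at CEBPB. With GC-corrected offsets CTCF was -0.19 at CEBPB, -0.07 at ASNS, -0.04 at XBP1 and -0.02 at SESN2, RAD21 -0.32 at CEBPB, and CTCF minus H3K27ac -0.58 at XBP1 and -0.13 at SESN2. With the replicate block and those offsets these values were, in the same order, -0.19, -0.03, -0.05, -0.02, -0.32, -0.58 and -0.14.

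With TMM over start-site intervals CTCF at ASNS was -0.03 and CTCF minus H3K27ac at XBP1 -0.20. With a mean of at least 50 counts the latter was -0.18 and RAD21 at CEBPB -0.40. YAP1 at CHAC1 was -0.28 in DESeq2, -0.23 on totals outside dominant intervals, -0.36 without the count filter and -0.39 in the fit of all 16 libraries, and the last 2 gave -0.04 and -0.08 at DDIT4. With 1 library left out at a time, signs changed in CTCF at ASNS (-0.34 to 1.05), in RAD21 at PPP1R15A (-0.19 to 1.29) and SESN2 (-0.98 to 0.41), in YAP1 at CHAC1 (-0.41 to 0.44), PPP1R15A (-1.70 to 0.20) and XBP1 (-0.60 to 0.12) and in H3K27ac at XBP1 (-0.05 to 0.13). They also changed for CTCF minus H3K27ac at XBP1 (-0.04 to 0.52) and for YAP1 minus H3K27ac at PPP1R15A (-1.04 to 0.95) and TRIB3 (-0.32 to 0.57).

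Libraries of a target share only a replicate number: deviations of same-numbered libraries had correlations of -0.00867 in CTCF, 0.000393 in RAD21, 0.00821 in YAP1 and -0.00414 in H3K27ac. With the replicate block 9 members rose and 1 fell in CTCF, where 6969 of 39261 tested intervals rose and 6835 fell. In RAD21 2 rose, where 398 of 17011 intervals rose, and in YAP1 2 rose, where 1073 of 22765 did. In H3K27ac 17 fell, where 8289 of 56601 intervals fell. CTCF minus H3K27ac passed with CTCF higher at 12 members and lower at 0, where 5893 and 7205 of 66550 intervals did. YAP1 minus H3K27ac passed with YAP1 higher at 8 and lower at 1, where 1236 and 1788 of 52935 did. The CTCF call at TRIB3 was lost with the block (edgeR adjusted p = 0.057).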
